A study of Homo sapiens with 7 samples.

Results

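The genes described here encode CTCF, its paralog CTCFL and the proteins that build, load and release the cohesin ring: RAD21, SMC3, STAG1, NIPBL, MAU2, WAPL, PDS5A and PDS5B. These 10 genes were chosen by name, out of 20163 protein-coding genes of GENCODE 44 on hg19, and all peak intervals over each gene body and 10 kb on each side of it were taken. HCT116, an established human colorectal carcinoma line, was grown at 200000 cells per well, and crosslinked chromatin was sonicated in the wells with PIXUL for 6 min in 100 μl. One well and 1 antibody gave 1 library each, without treatment, genotype or time groups, so that no value below has a replicate error and no test between libraries was possible. Lists for H3K4me3, H3K9Ac, H3K4me1, H3K36me3, H3K27me3 and CTCF were used, whereas H3K27Ac was not analysed here.

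CTCF has zinc fingers with which it recognises a long, directional DNA sequence. Cohesin is a ring that extrudes loops of chromatin and is known to halt at bound CTCF, and it also holds sister chromatids together until mitosis. Of the marks, H3K4me3 and H3K9Ac are found at active promoters, H3K4me1 at enhancers and promoter flanks, H3K36me3 over transcribed gene bodies and H3K27me3 at Polycomb-repressed genes. The CTCF list thus shows where the product of one of these genes was found on the genes themselves.

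In hg19, CTCF lies at chr16:67596370-67673080 on the plus strand with 12 exons in its canonical transcript, and CTCFL at chr20:56071022-56100708 on the minus strand with 11 exons. Of the ring subunits, RAD21 lies at chr8:117858173-117887015 (minus strand, 14 exons), SMC3 at chr10:112327442-112365806 (plus strand, 29 exons) and STAG1 at chr3:136055078-136471245 (minus strand, 34 exons). The loader genes are NIPBL at chr5:36876871-37066515 (plus strand, 47 exons) and MAU2 at chr19:19431638-19469563 (plus strand, 19 exons). WAPL, the gene of the release factor, lies at chr10:88195013-88281549 (minus strand, 19 exons), and its partners PDS5A and PDS5B at chr4:39824483-39979576 (minus strand, 33 exons) and chr13:33160589-33352157 (plus strand, 35 exons).

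A peak of a histone mark was kept where it passed the limits in the study's Methods. For H3K4me1 and H3K27me3 these ask for a fold enrichment above 2 at q-values under 0.001. For the other histone marks they ask for one above 5 at q-values under 1e-10. The Methods give no limits for CTCF, and the stricter ones were applied to it here. Fold enrichment, a linear ratio, sets the reads of a peak against the control used in peak calling. The lists hold no read counts, so that the depth of the libraries is unknown and values are not compared between marks. In all, 197 deposited intervals lay in the regions of the 10 genes, of which 63 were kept: 9 of 12 for H3K4me3, 9 of 21 for H3K9Ac, 21 of 39 for H3K4me1, 0 of 85 for H3K36me3, 0 of 6 for H3K27me3 and 24 of 34 for CTCF.

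To show what lay under the CTCF peaks, each interval was searched on both strands for the CTCF core consensus, a sequence of 12 bases that opens with CCA and ends with GGC, and the closest match was taken. The sequences are given from 5′ to 3′ on the strand of the match, with the 12 matched bases in capitals and 9 bases of hg19 on each side. The 5 genes with a kept CTCF peak at the transcription start site (TSS) are shown with the closest match in that peak, since these peaks lie at the promoters of CTCF and cohesin genes. The MAU2 sequence is the exact match in the highest CTCF peak of that gene, and those of CTCFL come from its 4 kept peaks.
STAG1 promoter, chr3:136471240-136471269, minus strand, 0 mismatches: gcaccgcggCCAGCAGAGGGCggtccggac
CTCF promoter, chr16:67596346-67596375, minus strand, 1 mismatch: gccgggcggCGAGTAGAGGGCgggggagga
PDS5B promoter, chr13:33160523-33160552, minus strand, 2 mismatches: ccgcggacaGCACCCGGGGGCaggcagagc
PDS5A exon 2, chr4:39978214-39978243, minus strand, 2 mismatches: cgatagaggCCGGTAGAGGACtgtgaacca
NIPBL promoter, chr5:36876103-36876132, minus strand, 3 mismatches: ggataaaggCCTGTAGGCGACgctgcgcga
MAU2 downstream, chr19:19477826-19477855, plus strand, 0 mismatches: tggccttggCCACCAGGGGGCatggtggcc
CTCFL intron 7, chr20:56089474-56089503, plus strand, 1 mismatch: gagatgcagCCACCAGATGGTgcgacagga
CTCFL intron 8, chr20:56084876-56084905, minus strand, 1 mismatch: gtcaggctcCCAGCAGGGAGCgccagagat
CTCFL intron 10, chr20:56074035-56074064, plus strand, 1 mismatch: tggcctctaCCACTAGATGCCagtagcacc
CTCFL downstream, chr20:56070450-56070479, minus strand, 2 mismatches: caatagtgcCCGCAAGAGGGCagtcgcttc

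The promoters separated CTCFL from the other genes. Within 1000 bp of the TSS of the canonical transcript, 9 of the 10 genes had a kept H3K4me3 peak, against 59.1% of all protein-coding genes, and the same 9 had a kept H3K9Ac peak, against 58.5%. Both peaks were found together at 57.5% of all genes. CTCFL, which in adults is known mainly from the testis, had neither. None of its 6 annotated transcript starts had a kept peak of any mark within 1000 bp. With 10 genes chosen by function and 1 library per mark, these shares are a description of the lists.

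At the 9 marked promoters, the H3K4me3 peaks had a median fold enrichment of 32.0, against 22.5 over the 11924 protein-coding genes with such a peak (middle 50% from 17.3 to 27.8). The highest value was at WAPL (42.3), which releases cohesin from chromatin, followed by SMC3 (38.3), a coiled-coil subunit of the ring, and PDS5A (37.7), a partner of WAPL. These 3 stood at percentiles 98.6, 96.8 and 96.3 among those genes. MAU2 (32.7), CTCF (32.0) and RAD21 (29.9), the subunit that closes the ring, followed. NIPBL (27.9), which loads cohesin together with MAU2, STAG1 (26.6), which encodes an accessory subunit of the ring, and PDS5B (26.4) were lowest. Each of the 9 values was above the median of all genes with a peak. Neighbours in this order, such as STAG1 and PDS5B, cannot be told apart without replicates.

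For H3K9Ac the median of the 9 genes was 20.1, against 13.1 over the 11797 protein-coding genes with a kept peak. PDS5A (22.0), RAD21 (21.4), WAPL (20.5), CTCF (20.3) and SMC3 (20.1) all stood above percentile 93 of those genes, and STAG1 (18.0) and MAU2 (15.6) lay above their median. NIPBL (13.2) lay at percentile 51.2 and PDS5B (12.02) at percentile 39.1. Thus PDS5B had the lowest value of the 9 genes for both marks, whereas its paralog PDS5A had the highest for H3K9Ac and the third highest for H3K4me3. In all 9 genes the H3K9Ac peak contained the H3K4me3 peak at both ends, as it did in 90.1% of the 11590 protein-coding genes with both. The H3K9Ac peaks were widest at STAG1 (5932 bp) and NIPBL (5626 bp) and narrowest at PDS5B (2665 bp).

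**Figure D1:**
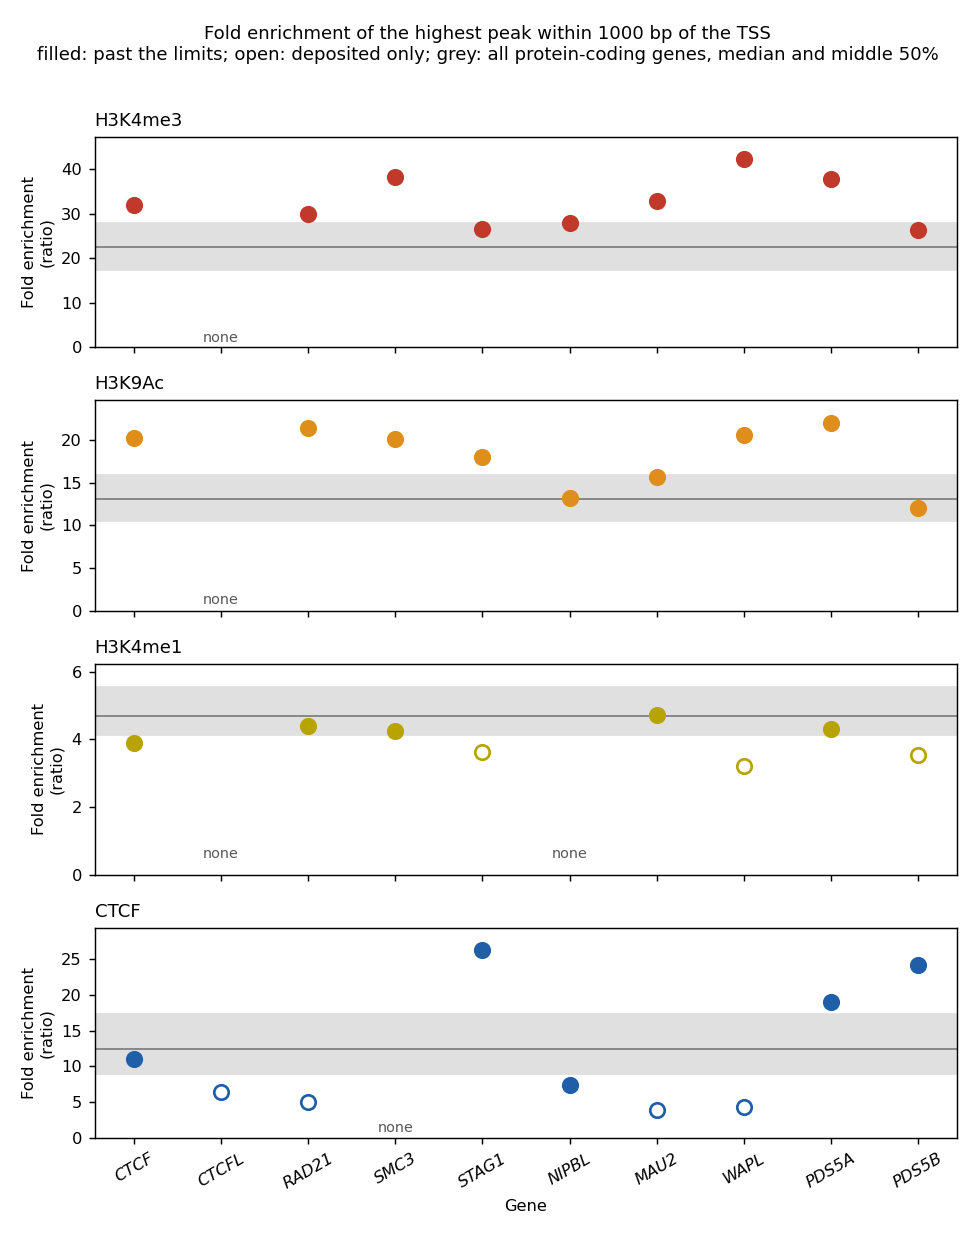
Fold enrichment (linear ratio, y axis) of the highest interval within 1000 bp of the TSS for each gene (x axis) and 4 marks. Filled points passed the limits, open points were deposited only, and the grey line and band give the median and middle 50% over all protein-coding genes with a kept peak. The 9 H3K4me3 values lie above the grey line, CTCFL has no H3K4me3 or H3K9Ac interval, and for CTCF the points of STAG1 and PDS5B are highest.

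H3K4me1 lay beside the TSS rather than on it. A kept H3K4me1 peak was found within 1000 bp of the TSS at 5 of the 10 genes (CTCF, RAD21, SMC3, MAU2 and PDS5A), against 49.1% of all protein-coding genes. The fold enrichments ranged from 3.90 at CTCF to 4.73 at MAU2, and their median of 4.32 was below that of all genes with a kept peak (4.69). With the deposited intervals included, 8 genes had H3K4me1 in this window, and in 1 of them, SMC3, an interval covered the TSS itself. Among the 10994 protein-coding genes with H3K4me3 and any H3K4me1 interval at the TSS, this was so in 63.2%. At CTCF, kept H3K4me1 peaks ended 427 bp upstream of the TSS and began again 1412 bp downstream, at both edges of the H3K4me3 peak. RAD21 (262 bp upstream and 1386 bp downstream), MAU2 (940 bp and 987 bp) and PDS5A (84 bp and 1492 bp) had the same arrangement of kept peaks.

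**Figure D2:**
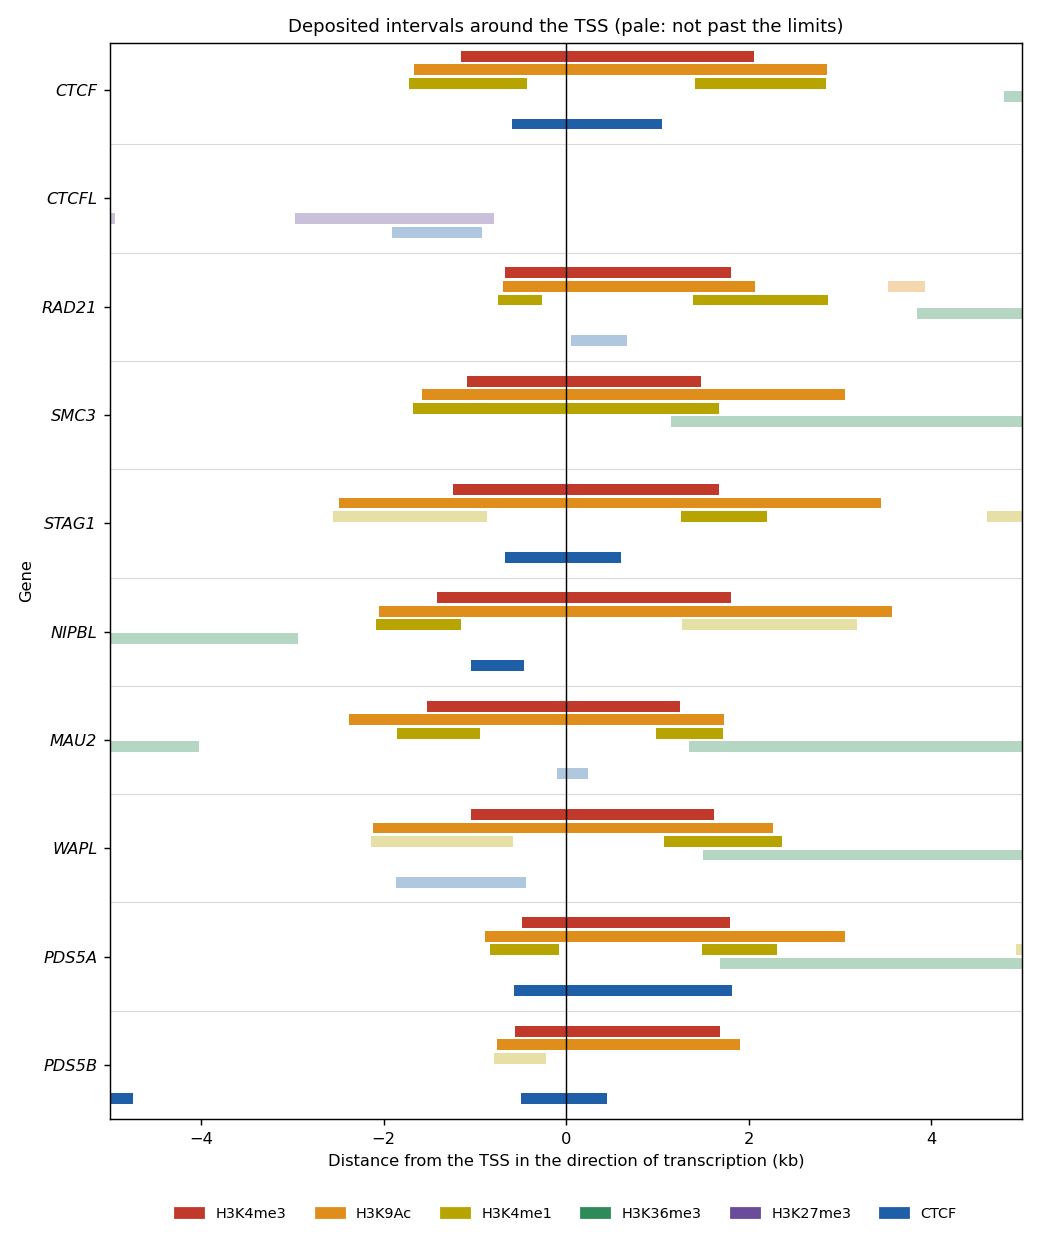
Deposited intervals within 5 kb of the TSS (x axis, kb in the direction of transcription) for each gene (y axis), with 1 lane per mark and pale bars for intervals that did not pass the limits. H3K9Ac (orange) reaches beyond H3K4me3 (red) at each marked promoter, H3K4me1 (yellow) lies on the flanks except at SMC3, and CTCFL shows H3K27me3 and CTCF intervals upstream of its TSS in pale colours.

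A kept CTCF peak lay within 1000 bp of the TSS at 5 of the 10 genes, against 13.6% of all protein-coding genes and 19.3% of the 11924 with H3K4me3 there. The highest was at STAG1, where the fold enrichment reached 26.2 (−log10 q-value 83.5), from 672 bp upstream to 605 bp downstream of the TSS. PDS5B followed with 24.2, from 493 bp upstream to 443 bp downstream. These values stood at percentiles 95.6 and 92.8 of the 2733 protein-coding genes with a kept CTCF peak at the TSS. The PDS5A peak (19.0) measured 2393 bp, wider than or as wide as 98.0% of the CTCF list, whose median is 654 bp, and spanned nearly the same interval as the H3K4me3 peak of the gene. A CTCF peak also lay at the promoter of CTCF itself, with a fold enrichment of 11.1 (percentile 41.5), and NIPBL had a peak of 7.45 that ended 464 bp upstream of the TSS. At RAD21 (5.03), WAPL (4.39), MAU2 (3.98) and CTCFL (6.48), CTCF intervals near the TSS were deposited but did not pass the limits. Counting any annotated transcript start, 6 of the 10 genes had a kept CTCF peak, since 3 of the 16 MAU2 starts had one. The share of all genes counted in that way was not computed. With all deposited intervals, 9 of the 10 genes had CTCF at the TSS, against 29.5% of all genes, and SMC3 had none.

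The closest match to the core in the STAG1 peak, shown above, was exact and lay 34 bp upstream of the TSS, 1 bp from the centre of the interval. In the CTCF and PDS5B peaks the closest match lay 69 bp and 52 bp upstream of the TSS, with 1 and 2 mismatches. In the PDS5A peak it lay 1303 bp downstream, in exon 2, and the NIPBL peak held no match with fewer than 3 mismatches. Counted from the interval centre by hg19 coordinate, the CTCF, PDS5B and PDS5A matches lay at −297, −27 and −681 bp. Those of CTCF and PDS5A were thus far from the centres of wide intervals. A match to letters is a description and not a measured binding site, since a list gives no summit. How often windows of hg19 hold a match with 2 or 3 mismatches was not computed. The PDS5B, PDS5A and NIPBL matches therefore cannot be told from chance matches.

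For 5 of the 10 genes, another gene starts on the other strand within 1000 bp upstream, against 19.6% of all protein-coding genes. CTCF-DT starts 217 bp from the TSS of CTCF, STAG1-DT 252 bp from that of STAG1, NIPBL-DT 112 bp from that of NIPBL and WAPL-DT 153 bp from that of WAPL. These partners are long non-coding RNAs, and SUGP1, a protein-coding gene, starts 320 bp from MAU2. Among these 5 genes, CTCF, STAG1 and NIPBL had a kept CTCF peak at the TSS, against 13.8% of the 3958 protein-coding genes with such a partner. The NIPBL peak ended 464 bp upstream of the TSS, beyond the start of NIPBL-DT. It thus did not lie over the gap between NIPBL and NIPBL-DT. At CTCF and STAG1 the match to the core lay in the gap between the annotated bounds of both genes. These gaps are shown on the plus strand, with the core in capitals in its reverse complement, because they place the match between the starts of a divergent pair.
CTCF-DT to CTCF, chr16:67596213-67596369: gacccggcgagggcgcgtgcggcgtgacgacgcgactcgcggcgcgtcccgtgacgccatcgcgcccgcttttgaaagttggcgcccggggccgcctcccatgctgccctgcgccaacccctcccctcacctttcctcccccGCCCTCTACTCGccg
STAG1 to STAG1-DT, chr3:136471246-136471471: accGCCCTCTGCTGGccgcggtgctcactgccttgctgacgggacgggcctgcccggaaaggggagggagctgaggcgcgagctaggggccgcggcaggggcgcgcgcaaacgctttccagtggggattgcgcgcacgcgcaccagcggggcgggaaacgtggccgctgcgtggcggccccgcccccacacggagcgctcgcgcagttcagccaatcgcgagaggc
The gaps measured 157 bp and 226 bp, with a GC content of 74.5% and 74.3%. In each of them the match lay next to the end that belongs to CTCF or STAG1.

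Over the whole regions, each of the 10 genes had at least 1 deposited CTCF interval, against 78.9% of all protein-coding genes treated in the same way. Such a share depends on gene length, and the median length was 81.6 kb for the 10 genes and 27.2 kb for all. Of the 24 kept peaks, 13 were centred in introns, 6 upstream, 5 downstream and 0 in exons of the canonical transcript. PDS5B had 5 kept peaks, CTCFL and NIPBL 4 each, STAG1 and MAU2 3 each, CTCF and SMC3 2 each and PDS5A 1, while RAD21 and WAPL had none. Apart from the promoters, the highest CTCF peaks of these regions belonged to MAU2, with 19.7 in the downstream flank, from 45796 to 46555 bp behind the TSS, and 18.7 in intron 9. Of the 34 intervals, 12 overlapped no interval of another mark, 10 of which were kept. The same share was not computed over the whole CTCF list, so whether it is usual there is not known.

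An exact match to the core was found in 3 of the 34 CTCF intervals, at STAG1, MAU2 and RAD21, against 15.7% of the 44812 deposited CTCF intervals. With 1 mismatch allowed it was 19 of 34, against 52.9%. In windows of hg19 of 804 bp, the median width of these 34 intervals, the shares were 0.300% and 4.09%. Away from H3K4me3, 16 of 24 intervals held a match with at most 1 mismatch, against 56.2% in the list. Of the 10 intervals that overlapped H3K4me3, 3 did, against 36.1% in the list. For the exact core the order was the opposite, with 1 of 24 intervals away from H3K4me3, against 17.2% in the list, and 2 of 10 at H3K4me3, against 7.52%. These counts are small, and no order between the places is read from them. The RAD21 interval with the exact match, in intron 11, had a fold enrichment of 5.78 and did not pass the q-value limit, so that an exact match and a kept peak did not always go together.

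**Figure D3:**
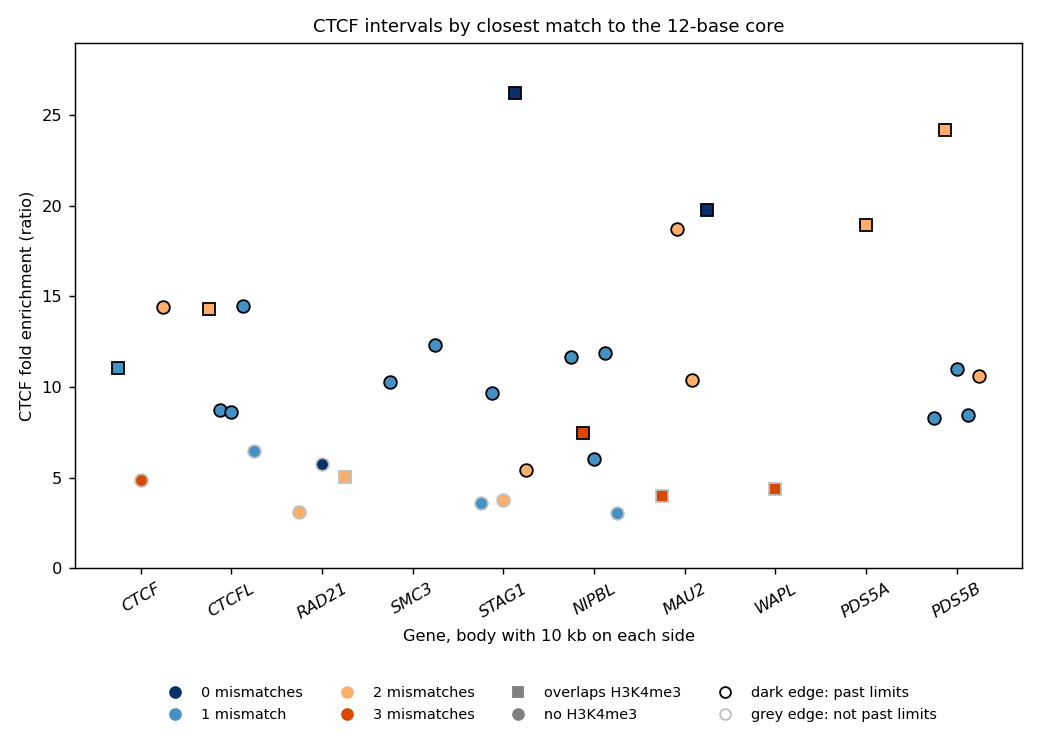
Fold enrichment (linear ratio, y axis) of the 34 CTCF intervals in the regions of the 10 genes (x axis), coloured by the mismatches of the closest match to the 12-base core, with squares for intervals that overlap H3K4me3 and a dark edge for kept peaks. The 2 highest squares belong to STAG1 with 0 mismatches and PDS5B with 2, and the 3 exact matches span fold enrichments from 5.78 to 26.2.

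The gene bodies were read from H3K36me3, for which no interval passed the limits. Only 90 of the 40010 deposited H3K36me3 intervals of the genome passed them, and 0.298% of protein-coding genes had a kept peak at the TSS, so all deposited intervals are described. H3K36me3 intervals lay in the region of 9 of the 10 genes, against 65.9% of all protein-coding genes, and CTCFL had none. The intervals covered a median of 72.6% of the gene body, against 4.83% over all protein-coding genes and 37.7% over those with H3K4me3 at the TSS.

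Coverage differed among the genes. It was 97.0% at SMC3, 89.4% at WAPL, 86.7% at RAD21, 81.8% at PDS5A, 77.5% at MAU2 and 67.6% at CTCF. In the other 3 marked genes it was 37.5% at NIPBL, 28.0% at PDS5B and 10.7% at STAG1. RAD21 and SMC3 were each covered by a single interval, of 27686 bp and 39997 bp, with fold enrichments of 4.77 and 4.71, at percentiles 98.4 and 98.3 of the H3K36me3 list. The RAD21 interval overlapped exons 2 to 14 and the SMC3 interval exons 2 to 29. In contrast, the body of STAG1, the longest of these genes at 416.2 kb, held 23 intervals of at most 10055 bp. NIPBL (189.6 kb) and PDS5B (191.6 kb) held 16 and 19 intervals. PDS5A, at 155.1 kb, had 6 intervals of up to 81954 bp, whereas the widest in its paralog PDS5B measured 11115 bp.

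In NIPBL and PDS5B, H3K36me3 lay in the later part of the gene. When each body was divided into 5 equal parts from the 5′ end, coverage of NIPBL was 1.33%, 0%, 45.1%, 75.4% and 65.5%, and that of PDS5B was 0.914%, 2.15%, 46.3%, 45.3% and 45.2%. In STAG1 the first part had 1.31% and the last 2 parts 23.6% and 19.4%. In SMC3, by comparison, the first part was already covered to 84.9% and the others to 100%. The distance from the downstream edge of the H3K4me3 peak to the next H3K36me3 interval was longest in the same 3 genes. H3K36me3 began 325 bp before that edge at SMC3, 128 bp before it at WAPL and 104 bp before it at PDS5A, and 90 bp behind it at MAU2. The distance was 2035 bp at RAD21, 2739 bp at CTCF, 6876 bp at NIPBL, 29415 bp at PDS5B and 37703 bp at STAG1. Over the 9935 protein-coding genes with both marks the median was 945 bp (middle 50% from 216 to 4639 bp). At NIPBL, PDS5B and STAG1 the distance rests on short, weak intervals of 504, 350 and 431 bp. Their fold enrichments were 2.72, 2.86 and 2.61, and the next intervals began 79197, 64915 and 55485 bp from the TSS.

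**Figure D4:**
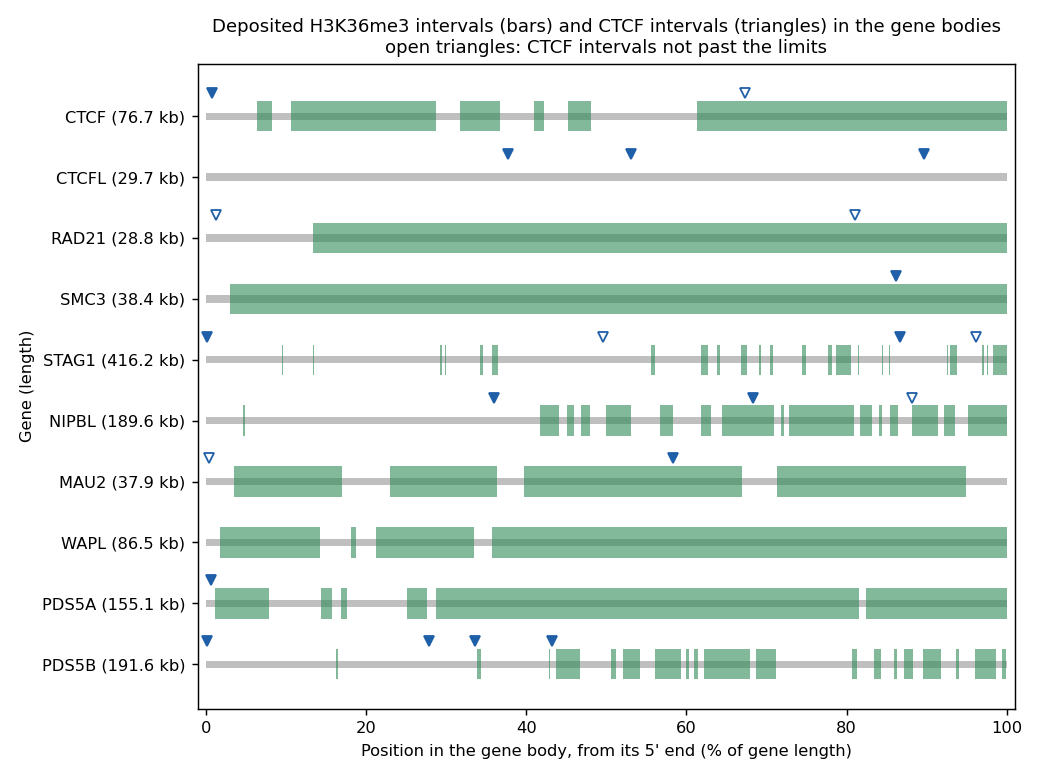
Deposited H3K36me3 intervals (green bars) and CTCF intervals (triangles, open where they did not pass the limits) along the body of each gene (y axis, with its length), from the 5′ end (x axis, % of gene length). SMC3 is covered from near the 5′ end, RAD21 by 1 interval that leaves most of the first of 5 equal parts bare (33.4% covered), NIPBL and PDS5B mainly in the later part, and CTCFL has CTCF intervals and no H3K36me3.

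CTCFL, on chromosome 20, had no kept H3K4me3 or H3K9Ac peak and no deposited H3K36me3 interval in its region, but it held CTCF. Kept CTCF peaks had fold enrichments of 14.5 in intron 7, 8.62 in intron 8, 8.73 in intron 10 and 14.3 downstream of the gene. An H3K9Ac interval (2.97) overlapped the intron 7 peak and did not pass the limits, and a kept H3K4me1 peak (5.22) over exon 11 overlapped the intron 10 peak. Upstream, 3 H3K27me3 intervals were deposited with fold enrichments of 2.89, 2.90 and 3.65, the closest of them 791 bp from the TSS. None passed the limits, as their −log10 q-values were 1.58, 1.52 and 2.65 against a limit of 3. The fifth CTCF interval of the gene (6.48) overlapped the closest of these.

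Deposited H3K27me3 intervals lay in the regions of 2 of the 10 genes, CTCFL and RAD21, against 30% of all protein-coding genes. This count was near that share. H3K27me3 covered 0 bp of any of the 10 gene bodies, and the median cover over all protein-coding genes was 0% as well. The RAD21 intervals (2.42, 2.76 and 2.995) lay in the flanks, the upstream one 5286 bp from the TSS. Kept H3K27me3 peaks were found at the TSS of 0 of these genes, against 1.22% of all. The interval names in the H3K27me3 list do not include the name of the cell line, unlike those of the other lists.

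Other genes of chromosome structure were read in the same way. Of 29 genes for further cohesin subunits and regulators, condensin and boundary factors, 28 had a kept H3K4me3 peak at the TSS, with a median fold enrichment of 23.2. Kept peaks of H3K9Ac lay there at 27, of H3K4me1 at 14 and of CTCF at 3 of the 29. Over all protein-coding genes the shares were 59.1% for H3K4me3, 58.5% for H3K9Ac, 49.1% for H3K4me1 and 13.6% for CTCF. The H3K4me1 and CTCF counts were thus near these shares. REC8, the meiotic counterpart of RAD21, was without a kept peak of any mark at the TSS. Kept CTCF peaks lay at the TSS of YY1 (27.8), a zinc-finger factor that occupies promoters, ESCO1 (23.8), which acetylates SMC3, and STAG2 (16.7), the paralog of STAG1. The 8 condensin genes had medians of 24.6 for H3K4me3 and 92.4% for the share of the body under H3K36me3. A kept CTCF peak lay at the TSS of 0 of these 8, against 19.3% of all protein-coding genes with H3K4me3 there. With so few genes, 0 is not read as a difference from that share. The lowest H3K4me3 value of the list was at STAG2 (8.61), the highest at YY1 (40.8). Its 3 genes on chromosome X, STAG2, HDAC8 (9.02), which deacetylates SMC3, and SMC1A (16.4), the partner of SMC3 in the ring, stood at percentiles 2.91, 3.56 and 21.6, and SMC1B (8.92), an autosomal meiotic subunit, at 3.36. A kept H3K27me3 peak (3.03) was found in the body of 1 of the 29 genes, RAD21L1, a meiotic paralog of RAD21. The same share over all protein-coding genes was not computed. At its TSS, RAD21L1 also had kept peaks of H3K4me3 (13.2), H3K9Ac (10.7) and H3K4me1 (5.18).

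By the percentiles of 4 lists at the TSS (H3K4me1, H3K4me3, H3K9Ac and CTCF), the protein-coding genes closest to CTCF were SERPINE2, VEGFA and JMJD6, at Euclidean distances of 7.54, 10.4 and 11.4 percentile points. Their H3K4me3 fold enrichments were 33.2, 32.6 and 35.97, and their CTCF fold enrichments 10.3, 10.8 and 11.8. The 4 points of such a profile come from 1 library each.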

How the data were processed

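Alignment by the authors was to hg19, and peaks were called with MACS2 in broad mode, whereas the submitters' processing notes name MACS 1.4.2, beside BWA 0.7.12, SAMtools 0.1.19 and bcl2fastq 2.20.0.442. The deposited broadPeak lists give for each interval a score, a fold enrichment (a linear ratio), and a −log10 p-value and −log10 q-value, and the score and p-value were not used. The methods name an input for the fold enrichment and no limits for CTCF, which was treated as the other marks with the stricter limits. The interval names of the H3K27me3 list carry another prefix than those of the other lists.

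GENCODE 44 mapped to hg19 has 20163 protein-coding genes here, of which 19881 have a canonical transcript. Its start was taken as the TSS, and the 5′ end of the gene for the others. Overlaps required at least 1 bp. Percentiles of fold enrichment are among protein-coding genes with a kept peak at the TSS, where the highest peak within 1000 bp counted. The core consensus was searched on hg19 on both strands, and ties went to the match nearest the centre of the interval. Overlap, coverage and search code was tested on simulated data. Versions were samtools 1.23.1, pyfaidx 0.9.0.4, pandas 2.3.3, numpy 2.4.6, scipy 1.17.1 and matplotlib 3.10.9 under Python 3.11.15.

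The 10 genes and the list of 29 further genes were chosen with earlier results of these data known. All 10 genes are named, and from the list those without H3K4me3, with H3K27me3 or with CTCF at the TSS and the highest and lowest for H3K4me3. The genes on chromosome X, SMC1B and the condensin genes were singled out after their values were seen. Each mark has 1 library, so that no test was made. Wells of 1 line are not biological replicates of a condition, and depth, which the lists do not give, can change how many intervals are found and how wide they are.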

Additional observations from a re-analysis of the deposited data

How the results depend on the processing

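No paired analysis was possible because there was a single library for every mark, and no library could be left out for the same reason. Of 66 recomputed values, 47 stayed within 1.5 times the reported ones. Values of 0 in both settings, such as the H3K36me3 counts at the TSS, are among these 47 and say little about stability. The counts of genes with H3K4me3 and H3K9Ac at the TSS stayed at 9 under all alternatives tried (deposited peaks, fold limits raised 1.5 times, other limits, windows of 500 and 2000 bp, any annotated transcript start). With all deposited peaks, H3K4me1 lay at the TSS of 8 genes in place of 5, H3K27me3 of 1 in place of 0 and CTCF of 9 in place of 5. With the limits of the 2 groups of marks exchanged, the counts were 0 for H3K4me1 and 9 for CTCF, and a window of 2000 bp gave 8 for H3K4me1. In the regions of the genes, 50000 bp on each side gave 25 H3K4me3, 51 H3K9Ac, 68 H3K4me1, 20 H3K27me3 and 59 CTCF intervals. Peaks past the limits numbered 9 for H3K9Ac, 21 for H3K4me1 and 0 for H3K36me3 and H3K27me3, and the gene bodies alone held 0 H3K27me3 and 22 CTCF intervals. With 1 mismatch allowed, 19 CTCF intervals held the core in place of 3. The median share of the gene body under H3K36me3 was 0% with peaks past the limits, in place of 72.6%. These changes follow from how many intervals or bases each alternative lets in. Because the depth of the libraries is unknown, an interval that is missing from a list may not have been detectable.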

Other observations

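Some of the CTCF peaks in these regions lay at the starts of neighbouring genes. In the downstream flank of CTCF, a kept CTCF peak with a fold enrichment of 14.4 contained the TSS of CARMIL2, which encodes a regulator of actin capping, without any interval of another mark over it. Downstream of CTCFL, the kept CTCF peak of 14.3 contained the TSS of HMGB1P1 and overlapped deposited H3K4me3 (3.73), H3K9Ac (5.35) and H3K4me1 (3.17) intervals, none of which passed its limits. Downstream of MAU2, a kept CTCF peak (19.7) with an exact match to the core overlapped a kept H3K4me1 peak (4.38), an H3K9Ac interval (4.38) and an H3K4me3 interval (3.18), and contained no annotated TSS. The flank of PDS5A held a kept H3K4me1 peak (4.91) with an H3K9Ac interval (3.85) and no CTCF interval. In STAG1, 14 H3K4me1 intervals were deposited, of which 4 were kept, and those at 3.72 in intron 2 and 4.12 in intron 1 overlapped H3K9Ac intervals away from the promoter.

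The closest matches in a kept CTCFL peak and in a deposited NIPBL interval had the same 12 bases, shown here side by side. The flanks before the core are alike only when shifted by a base, and those after it share their first bases. How often such pairs occur, and why these are alike, was not tested.
CTCFL intron 10, chr20:56074035-56074064: tggcctctaCCACTAGATGCCagtagcacc
NIPBL intron 34, chr5:37043965-37043994: ggcctctatCCACTAGATGCCagtagtggc
The CTCFL peak had a fold enrichment of 8.73 and the NIPBL interval, which did not pass the limits, 3.07.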
